A study of Mus musculus with 64 samples.

Results

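The genes described here encode the subunits, activators and assembly chaperones of the mouse proteasome, measured by RNA sequencing in restimulated CD4 T cells that lacked the RNA-binding proteins Roquin-1 and Roquin-2 (genes Rc3h1 and Rc3h2), Regnase-1 (gene Zc3h12a) or all of them. They are the protein-coding genes whose symbol begins with Psma, Psmb, Psmc, Psmd, Psme, Psmf or Psmg and a number, which were 49 of the 23134 genes in the deposited table. The series holds 64 libraries in 16 groups of 4, for 4 genotypes at 4 times. Splenic CD4 T cells came from C57BL/6J mice that all carried the inducible Cre transgene Cd4-Cre-ERt2, the controls (WT) included. The double knockout (DKO) had Rc3h1/2 fl/fl alleles in addition, the single knockout (KO) had Zc3h12a fl/fl alleles, and the triple knockout (TKO) had both sets. Deletion was induced with 4'-OH-tamoxifen. The cells were activated with antibodies to CD3 and CD28 under Th1 conditions, kept in medium with interleukin 2, and either left untreated (0 h) or restimulated with the same antibodies for 1, 2 or 4 h. No age of the mice is labelled, nor whether replicate libraries stem from different mice or dishes, so a p-value here covers the scatter among the libraries alone, and that scatter may be technical.

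The proteasome is the protease that degrades ubiquitin-tagged proteins and cuts peptides for presentation on MHC class I. Its 20S core is a stack of rings of alpha subunits (Psma genes) and beta subunits (Psmb genes), and the beta subunits encoded by Psmb5, Psmb6 and Psmb7 carry the constitutive catalytic sites. In lymphocytes and in cells exposed to interferon gamma they are replaced during assembly by Psmb8 (LMP7), Psmb9 (LMP2) and Psmb10 (MECL-1), which gives the immunoproteasome. The 19S regulator, with a base of ATPases (Psmc genes) and a base and lid of further Psmd subunits, recognises and unfolds substrates. Psme1 and Psme2 (PA28 alpha and beta), Psme3 (PA28 gamma) and Psme4 (PA200) encode other activators that cap the core, Psmf1 encodes an inhibitor, and the Psmg genes with Psmd5, Psmd9 and Psmd10 encode assembly chaperones.

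Promoter sequence is shown for the 2 pairs of catalytic subunits whose immunoproteasome member moved furthest from its constitutive counterpart, because the members of each pair moved in opposite directions. The windows run from 250 bases before to 50 bases after the start of the gene in RefSeq (GRCm38.p6), 5′ to 3′. RefSeq gave such a window for 41 of the 49 genes. The gene spans printed further below come from GENCODE, which can place a start elsewhere. The Psmb8 and Psmb9 windows lie wholly within those spans. Capitals mark a match to 1 of the 3 motifs searched on both strands: the gamma-activated site TTCNNNGAA, which reads the same on both strands, the core of the interferon-stimulated response element (GAAA, any 2 bases and GAAA again), and the antioxidant response element TGACNNNGC, whose first letters are shared with other motifs such as the cAMP response element.
Psmb8, chr17:34197945-34198244, plus strand: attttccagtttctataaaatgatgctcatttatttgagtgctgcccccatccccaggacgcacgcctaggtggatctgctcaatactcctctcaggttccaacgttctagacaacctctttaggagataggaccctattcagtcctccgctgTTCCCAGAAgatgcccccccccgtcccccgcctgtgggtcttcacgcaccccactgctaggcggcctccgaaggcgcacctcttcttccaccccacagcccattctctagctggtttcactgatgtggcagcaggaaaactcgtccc
Psmb9, chr17:34187281-34187580, minus strand: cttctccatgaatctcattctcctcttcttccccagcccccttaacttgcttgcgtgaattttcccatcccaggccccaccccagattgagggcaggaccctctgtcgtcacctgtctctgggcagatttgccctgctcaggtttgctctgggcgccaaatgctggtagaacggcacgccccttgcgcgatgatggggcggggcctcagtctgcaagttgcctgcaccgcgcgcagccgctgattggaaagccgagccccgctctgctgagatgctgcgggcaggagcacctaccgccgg
Psmb5, chr14:54617946-54618245, minus strand: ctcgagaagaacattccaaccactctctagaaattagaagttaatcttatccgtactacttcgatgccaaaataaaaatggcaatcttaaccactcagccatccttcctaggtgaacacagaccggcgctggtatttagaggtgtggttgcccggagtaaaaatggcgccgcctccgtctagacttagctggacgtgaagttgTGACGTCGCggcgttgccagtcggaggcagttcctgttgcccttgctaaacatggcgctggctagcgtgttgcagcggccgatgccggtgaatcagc
Psmb6, chr11:70525107-70525406, plus strand: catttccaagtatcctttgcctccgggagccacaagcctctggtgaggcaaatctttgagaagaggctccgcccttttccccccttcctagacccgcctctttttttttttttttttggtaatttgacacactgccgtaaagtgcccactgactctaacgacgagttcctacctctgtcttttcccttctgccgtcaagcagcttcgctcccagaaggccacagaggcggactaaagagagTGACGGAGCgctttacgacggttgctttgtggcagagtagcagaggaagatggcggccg

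The Psmb8 window holds TTCNNNGAA at position -97 from the RefSeq start, and the Psmb5 and Psmb6 windows hold TGACNNNGC at positions -47 and -9. The Psmb9 window holds none of the 3 motifs, and 275 of its bases are shared with the window of Tap1, the neighbouring gene on the other strand. TTCNNNGAA was in 8.3% of 32851 windows of this length and in those of 3 of the 41 genes, Psmb8, Psmd2 and Psmg1. TGACNNNGC was in 12.39% of the windows and in those of 6 of the 41 genes, Psmb5, Psmb6, Psmc6, Psmd12, Psmd9 and Psme4. The core of the interferon-stimulated response element was in 3.44% of the windows and in those of 5 of the 41 genes, Psmb3, Psmd4, Psmd9, Psme1 and Psmg4. These matches describe letters in a window and are not evidence of binding.

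Between 5369860 and 11666340 reads per library (median 7720312) were recovered from the deposited values, of which the 49 genes took 0.19 to 0.38%, or 11664 to 44058 reads. Values below are normalized counts, the deposited normalized read counts rescaled between libraries, and a level per kilobase is that value divided by the exon length of the gene. Of the 49 genes, 48 passed the filter on low values. The exception was Psma8, a testis-restricted alpha subunit, which lay between 0 and 18.26 normalized counts in every library. Rc3h1 was lower in DKO (618 on average at 4 h) and TKO (706) than in WT (1390), and Zc3h12a at 1 h was lower in KO (641) and TKO (548) than in WT (1045). Zc3h12a was not lower at 0 h, where its means were 122.3 in KO and 148.4 in TKO against 95.2 in WT, and at 4 h the groups overlapped, at 151.3 and 145.5 against 166.1. Rc3h2 was not lower in DKO either (739 against 640 at 4 h), and whole-gene values cannot separate deleted from remaining exons. The summed level of 6 T cell markers (Cd3e, Cd3d, Cd3g, Cd4, Trac and Lck) was between 3485 and 10280 in every library, and Cd8a and Cd8b1 together reached at most 473.4. Of the B cell markers, Ms4a1, Cd79a and Cd79b reached at most 20.97, 27.18 and 34.9 in any library, whereas Ighm was abundant. The summed markers of myeloid cells lay between 5.76 and 61.1, of dendritic cells between 8.80 and 154.4, of natural killer cells between 32.7 and 599.4, and of erythroid cells between 0 and 32.8.

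The 4 WT libraries at 0 h, the reference of every time course in WT, stood further apart in these genes than the libraries of any other group. Library 4 was the lowest of the 4 for 46 of the 48 genes tested, and library 3 was the highest for 40 of 48. These libraries had 7532473 and 6224355 reads, and their 10 most abundant loci took 32.83% and 37.59% of reads. Each gene was set against its mean over all libraries on the log2 scale, and the median of all genes tested was subtracted from that of the 48 genes. This difference spanned 0.82 in this group and 0.23 to 0.68 in the other 15. The tests of the 48 genes against WT at 0 h were therefore repeated without these libraries. The counts from that fit, and the calls named below that it ends, are given beside the results.

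After restimulation of WT cells most proteasome genes rose by 2 h and the 3 immunoproteasome subunits had fallen by 4 h. A gene is called changed where the adjusted p of limma (a linear model on log2 values, adjusted over 16140 genes) was under 0.05, and differences are on the log2(value + 1) scale with their SE and n = 4 libraries a group. At 1 h 14 of the 48 genes were called higher and none lower, where 18.7% of all genes tested were called higher and 12.4% lower. At 2 h 29 were higher and 1 lower, against 26.5% and 25.4% of all genes. At 4 h 25 were higher and 3 lower, against 24.6% and 27.1%. The median change of the 48 genes was 0.24 at 1 h, 0.52 at 2 h and 0.49 at 4 h, and that of all genes was -0.10, -0.16 and 0.01. With the deposited scaling 20 genes were higher and 0 lower at 1 h, and 31 and 1 at 2 h. Median-of-ratios scaling gave 10 and 0 at 1 h, and 27 and 2 at 2 h. Upper quartile scaling gave 7 and 2, and 21 and 2. Scaling by the total gave 6 and 2, and 18 and 3. The 1 h median of the 48 genes was 0.05 with upper quartile scaling and 0.0002 with the total, and that of all genes -0.28 and -0.33. By mean level, 27 of the 48 genes peaked at 2 h, 14 at 4 h, 3 at 1 h (Psma4, Psmd8 and Psme4) and 4 at 0 h (Psmb8, Psmb9, Psmb10 and Psmd10). All 4 libraries lay above all 4 of the 0 h group for 8 genes at 1 h (16% of all genes), 18 at 2 h (21.8%) and 19 at 4 h (21.8%), and below them for 0, 0 and 3 (10.5%, 20.3% and 24.7%). Without WT 0 h libraries 3 and 4, 9 genes were called higher at 1 h, 22 higher and 1 lower at 2 h, and 22 higher and 3 lower at 4 h, of which 8, 22 and 25 were among the genes called with all libraries. The genes no longer called were Psma5, Psmb2, Psmc4, Psmc6, Psmd1 and Psme1 at 1 h, Psma6, Psmb5, Psmb6, Psmc2, Psmc5, Psmd3, Psmd4 and Psmg3 at 2 h, and Psmb6, Psmc2 and Psmd4 at 4 h.

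**Figure D1:**
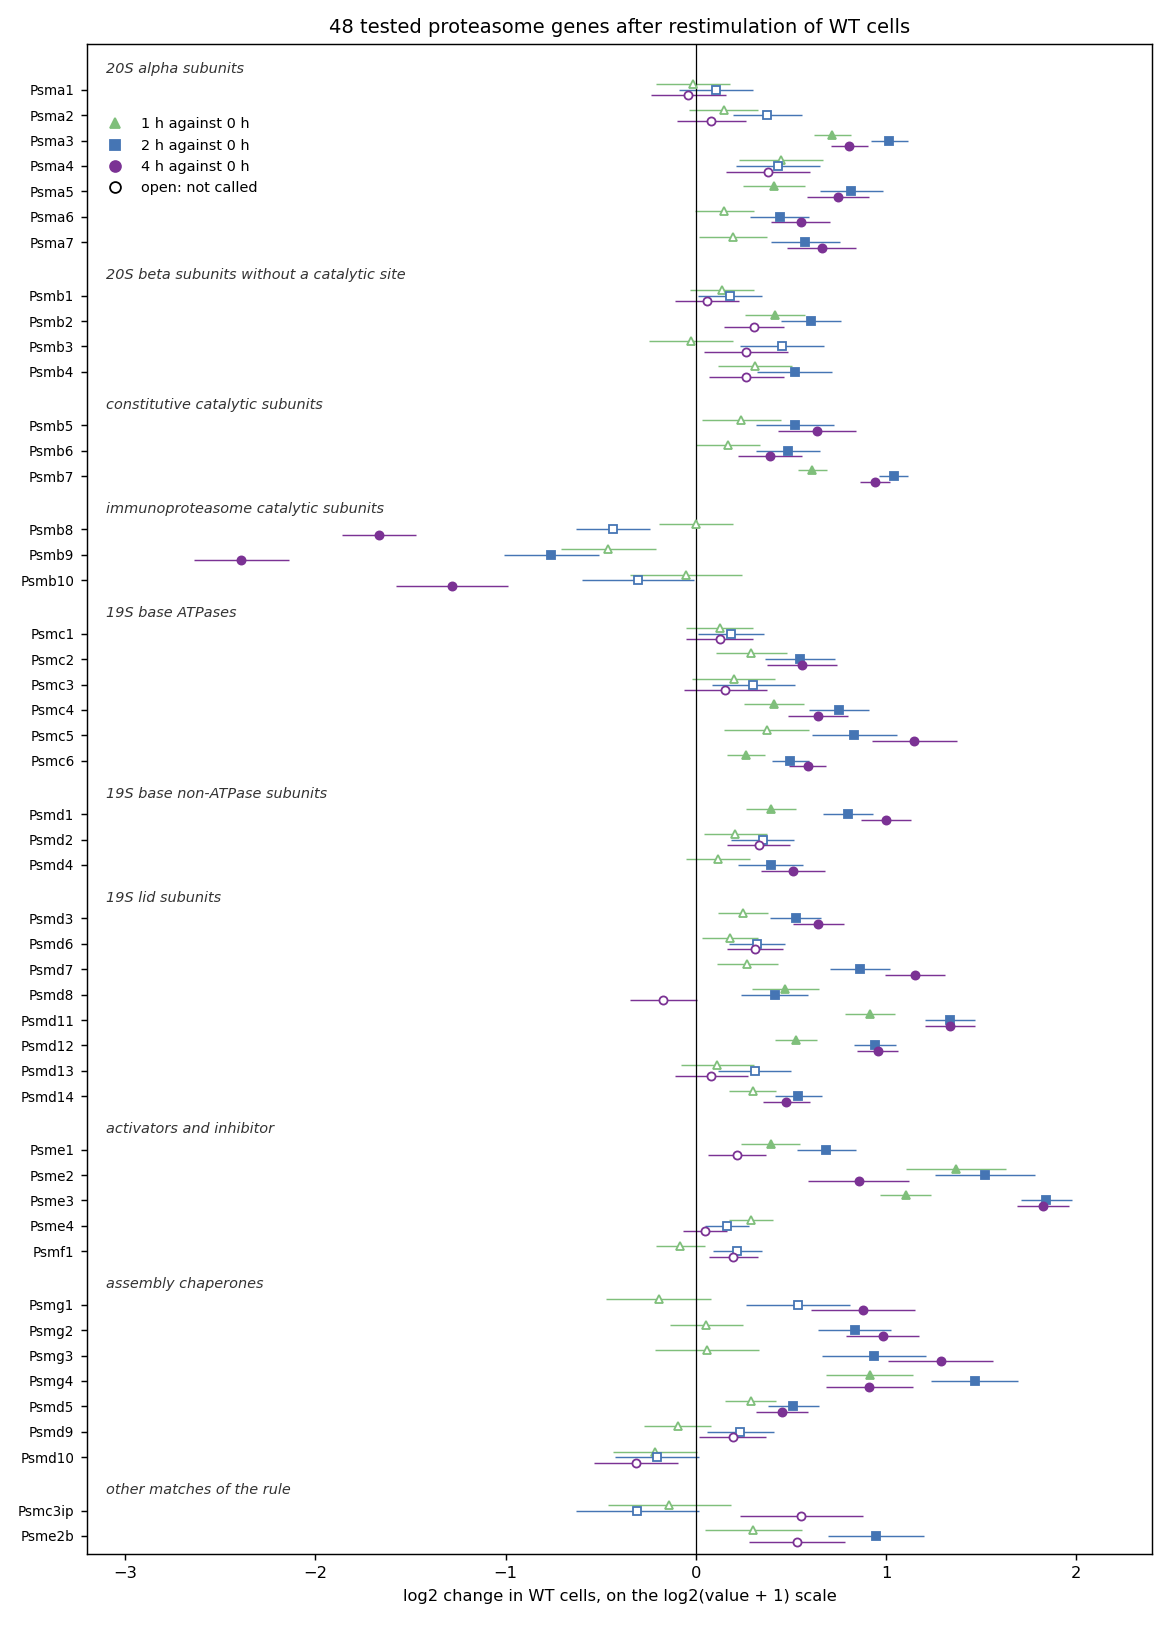
Change of each of the 48 tested genes in WT cells at 1 h (triangles), 2 h (squares) and 4 h (circles) against 0 h, on the log2(value + 1) scale with bars of 1 SE (n = 4 libraries a group); filled symbols were called. Nearly all called genes lie right of 0, up to 1.84 for Psme3, and Psmb8, Psmb9 and Psmb10 lie left of 0 at 4 h, down to -2.39.

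The contrast was sharp between the immunoproteasome subunits and the 31 constitutive subunits of the 20S and 19S particles. Of those 31, 10 were called higher at 1 h, 21 at 2 h and 18 at 4 h, none was called lower at any of these times, and the median change was 0.26, 0.52 and 0.51. Of Psmb8, Psmb9 and Psmb10, none was called at 1 h, Psmb9 was lower at 2 h, and all 3 were lower at 4 h. Changes of the 31 at 4 h ranged from -0.17 to 1.34, so that none of them reached the smallest fall of the 3, the -1.28 of Psmb10. Without WT 0 h libraries 3 and 4, the counts for the 31 were 5, 14 and 15 higher, and at 4 h the 3 falls were -1.64 for Psmb8, -2.35 for Psmb9 and -1.37 for Psmb10, each called.

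Psmb8 (ENSMUSG00000024338, GRCm38 chr17:34197721-34201454, plus strand) encodes the immunoproteasome counterpart of Psmb5. Its WT libraries held 1037, 928.9, 1428 and 732.5 normalized counts at 0 h and 1313, 755.1, 1070 and 956.4 at 1 h. After 2 h they held 661.3, 846.5, 1013 and 530.2, and after 4 h 338.3, 364.5, 218.5 and 364.7. The 1 h and 2 h libraries overlapped those at 0 h, and every 4 h library was below every library of the other times. Psmb8 changed by 0.00 ± 0.19 at 1 h and by -0.44 at 2 h, which missed the threshold (adjusted p = 0.054), and fell by 1.67 at 4 h (adjusted p = 8.7e-11).

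Psmb9 (ENSMUSG00000096727, chr17:34181987-34187764, minus strand), the counterpart of Psmb6, fell the furthest of the 48 genes. Its WT libraries held 299.8, 259.7, 428.4 and 203.5 normalized counts at 0 h. After 1 h they held 297.7, 150.2, 199.1 and 210.9, and after 2 h 147.4, 199.4, 265.2 and 104.9. At 4 h they held 48.99, 52.05, 46.27 and 71.83, from 40 to 77 reads, below every library of the earlier times. The change was -0.46 ± 0.25 at 1 h (adjusted p = 0.16), -0.76 at 2 h (adjusted p = 0.0084) and -2.39 at 4 h (adjusted p = 3.4e-12). The gene overlaps Tap1, which encodes a subunit of the peptide transporter, by 212 bases on the opposite strand, and since Tap1 had 538.8% as many reads and the strand setting of the counting is not known, reads of the shared stretch cannot be told apart.

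Psmb10 (ENSMUSG00000031897, chr8:105935735-105938444, minus strand), the counterpart of Psmb7, held 187.5, 190.6, 268.7 and 104.8 normalized counts in WT at 0 h and 68.6, 87.19, 46.27 and 100.7 at 4 h. The groups did not overlap, with the lowest library at 0 h just above the highest at 4 h. Psmb10 changed by -0.05 ± 0.29 at 1 h and -0.30 at 2 h, neither called, and fell by 1.28 at 4 h (adjusted p = 0.00018).

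The constitutive catalytic subunits moved the other way over the same hours. Psmb7 (ENSMUSG00000026750, chr2:38588036-38644087, minus strand), with the trypsin-like site, held 541.1, 582.6, 608.9 and 503.6 normalized counts in WT at 0 h. After 1 h it held 914.7, 804.3, 858.1 and 834.9, after 2 h 1158, 1157, 1215 and 1069, and after 4 h 1027, 1122, 1057 and 1085. Every restimulated library was above every library at 0 h, and the rise was 0.61 ± 0.08 at 1 h (adjusted p = 2.3e-09), 1.04 at 2 h (1.2e-17) and 0.94 at 4 h (4.6e-16). Psmb7 overlaps Nek6 on the opposite strand by 405 bases, and Nek6 had 119.1% as many reads.

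Psmb5 (ENSMUSG00000022193, chr14:54614119-54618022, minus strand), with the chymotrypsin-like site, held 99.14, 86.57, 120.9 and 63.04 normalized counts in WT at 0 h and 132.4, 143.8, 144.2 and 141.8 at 4 h. These groups did not overlap, and the rise was 0.52 at 2 h (adjusted p = 0.029, or 0.105 without WT 0 h libraries 3 and 4) and 0.64 at 4 h (adjusted p = 0.0072). Of its 50-base stretches, 54.1% also occur in other genes, most of all in Gm3375, which was listed at 0. Psmb6 (ENSMUSG00000018286, chr11:70525367-70527858, plus strand), with the caspase-like site, held 403.8, 442.2, 452.2 and 276.7 at 0 h and 555.2, 537.8, 426.2 and 519.6 at 4 h, which overlap. It rose by 0.48 ± 0.17 at 2 h (adjusted p = 0.013, or 0.142 without these 2 libraries), and by 0.39 at 4 h (adjusted p = 0.047), a call that was lost in 9 of the alternatives tried.

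Per kilobase of exon, the order of the 6 catalytic subunits in WT was turned over between 0 and 4 h. At 0 h Psmb8 stood highest at a mean of 305.1 normalized counts per kilobase, followed by Psmb6 at 210.3, Psmb7 at 163.4, Psmb10 at 110.2, Psmb5 at 102.8 and Psmb9 at 81.4. At 4 h Psmb7 led at 313.6, then Psmb6 at 272.3, Psmb5 at 156.3, Psmb8 at 95.1, Psmb10 at 44.4 and Psmb9 at 14.97. The 3 constitutive subunits thus held the upper places at 4 h. At 0 h the order of Psmb10, Psmb5 and Psmb9 rests on means closer than the spread between libraries. Levels per kilobase depend on an annotation that counts every exon of a gene, whether or not these cells use it.

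**Figure D2:**
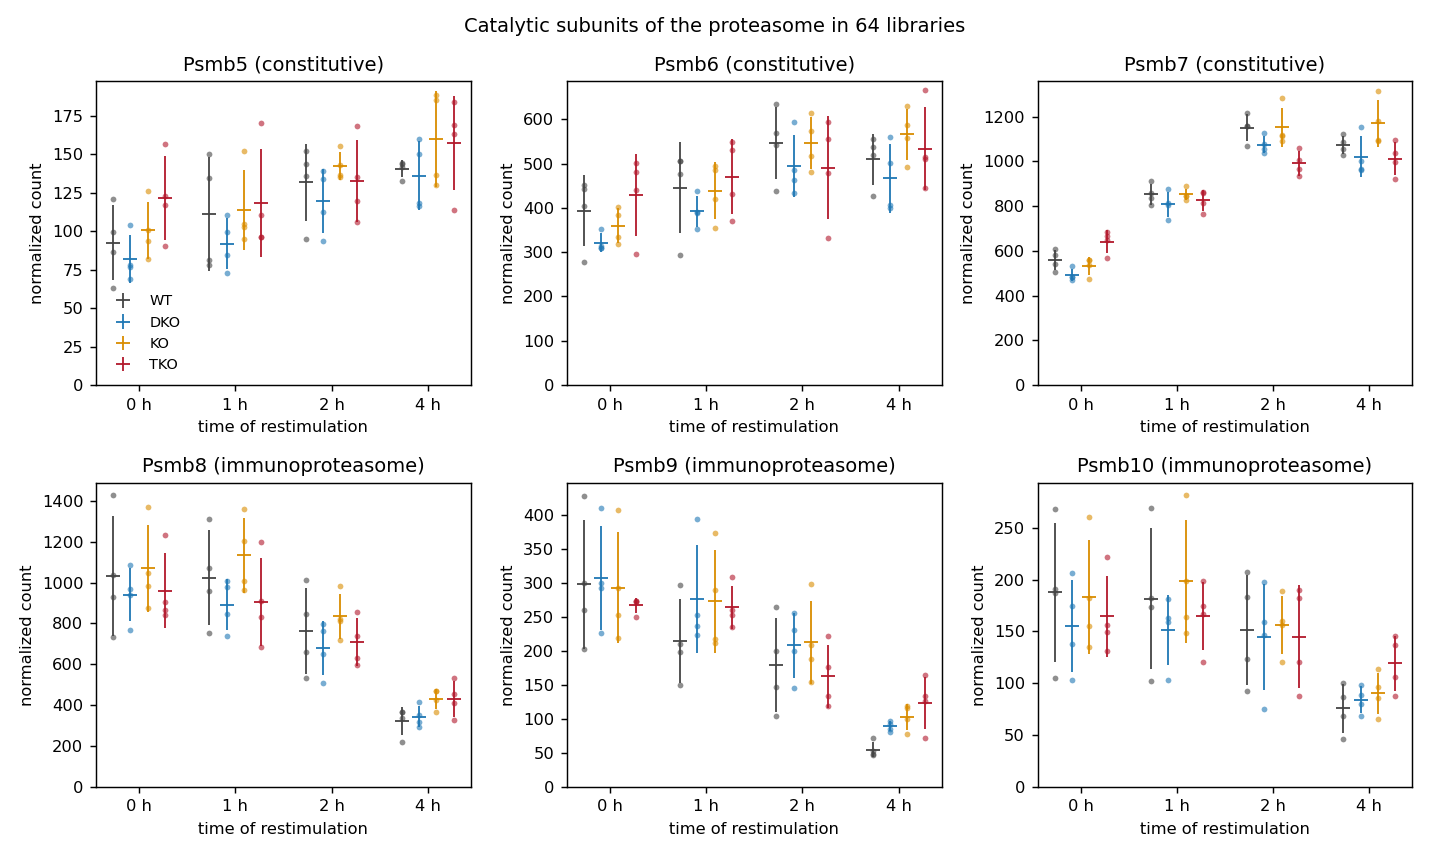
Normalized counts of the 3 constitutive and 3 immunoproteasome catalytic subunits by time of restimulation and genotype; points are libraries, horizontal ticks group means and vertical bars 1 SD (n = 4). In WT Psmb7 goes from 503.6 to 608.9 at 0 h up to 1027 to 1122 at 4 h, while Psmb9 goes from 203.5 to 428.4 down to 46.27 to 71.83.

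Because each immunoproteasome subunit takes the place of 1 constitutive subunit in the core, their transcripts were also compared within each library as log2 ratios, which do not depend on the scaling between libraries. The ratio of Psmb8 to Psmb5 in WT was 3.46 at 0 h, 3.22 at 1 h, 2.51 at 2 h and 1.16 at 4 h. At 0 h the libraries were at 3.37, 3.41, 3.55 and 3.52, and at 4 h at 1.35, 1.34, 0.60 and 1.36. The 4 h value of 0.60 stood apart from the other 3, and all 4 were below every 0 h library. The difference of -2.30 between 4 h and 0 h ranged from -2.37 to -2.12 as each library was left out.

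The ratio of Psmb9 to Psmb6 in WT went from -0.43 at 0 h through -1.06 and -1.67 to -3.21 at 4 h, and that of Psmb10 to Psmb7 from -1.64 through -2.30 and -2.98 to -3.86. All 3 ratios were lower at 2 h than at 0 h without overlap, by 0.96 for Psmb8 to Psmb5, 1.24 for Psmb9 to Psmb6 and 1.34 for Psmb10 to Psmb7 on the log2 scale. At 1 h all 3 overlapped with 0 h. With 4 libraries against 4 an exact permutation test over 70 arrangements cannot give a 2-sided p under 0.0286, which each of these comparisons without overlap reached. Over the 45 ratio comparisons the adjusted p was then 0.129, so none passed 0.05. With a smallest p of 0.0286, an adjusted p under 0.05 needs most of the 45 comparisons to reach it. The adjusted p therefore cannot decide whether a single ratio changed.

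**Figure D3:**
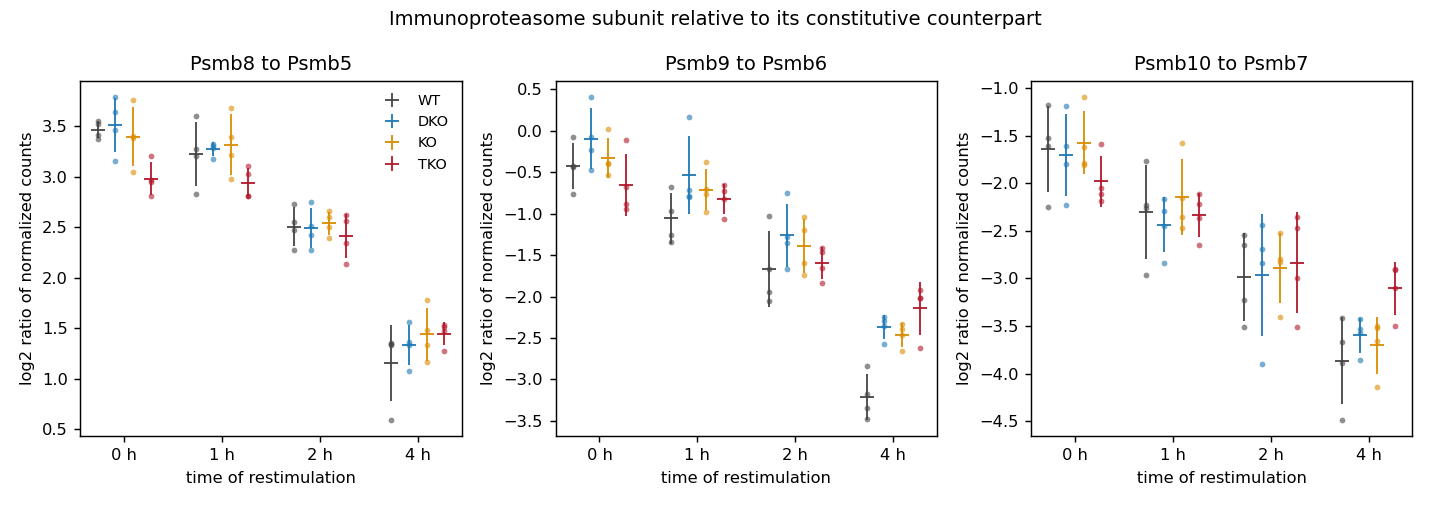
Log2 ratio of each immunoproteasome subunit to its constitutive counterpart in every library, by time and genotype; points are libraries, ticks means and bars 1 SD (n = 4). All 3 ratios in WT lie lower at 2 h and at 4 h than at 0 h, and at 4 h the Psmb9 to Psmb6 ratio of WT lies below those of DKO, KO and TKO.

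Among the 7 tested alpha subunits, which form the outer rings of the core, 2 were called higher in WT at 1 h, 4 at 2 h and 4 at 4 h. Psma3 rose the most at 4 h, from 382.3, 328.8, 352.2 and 254.3 normalized counts at 0 h to 617.7, 561.6, 583.3 and 524.3, a change of 0.81 (adjusted p = 2.2e-10). The 4 h libraries were all above the 0 h libraries. Psma3 had already risen by 0.72 ± 0.10 at 1 h. Of the 4 beta subunits without a catalytic site, Psmb1 to Psmb4, 1 was called higher at 1 h, 2 at 2 h and none at 4 h, with a median change of 0.26 at 4 h.

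In the 19S base, 2 of the 6 ATPases were called higher at 1 h, 4 at 2 h and 4 at 4 h, with a median change of 0.57 at 4 h. Psmc5 (Rpt6) rose the most, from 215, 169.6, 204.5 and 93.58 normalized counts at 0 h to 337, 380.4, 345.5 and 386.2 at 4 h, by 1.15 ± 0.22 (adjusted p = 1.5e-05). The groups did not overlap, and library 4 at 0 h stood well below the other 3. Psmd1 (Rpn2), the scaffold of the base, held 941.2, 889.2, 916.3 and 596.2 at 0 h and 1544, 1784, 1719 and 1544 at 4 h, without overlap, and rose by 1.00 ± 0.13 (adjusted p = 3.5e-09). Psmd4 (Rpn10), a ubiquitin receptor, rose by 0.51 at 4 h (adjusted p = 0.0088), or 0.42 without WT 0 h libraries 3 and 4, which was not called (adjusted p = 0.0746).

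The lid, which carries the deubiquitinase Psmd14, had 3 of 8 subunits called higher at 1 h, 6 at 2 h and 5 at 4 h. Psmd11 (Rpn6), a lid subunit that contacts the core, rose the most of the 31 constitutive subunits. It held 487.3, 446.9, 488 and 342.9 normalized counts at 0 h and 1030, 1069, 1046 and 1296 at 4 h, with every 4 h library far above the 0 h group. Its rise was 0.92 ± 0.13 at 1 h (adjusted p = 6.2e-08) and 1.34 at 4 h (adjusted p = 3.1e-13). Psmd7 (Rpn8), the partner of Psmd14, rose by 1.15 ± 0.16 at 4 h (adjusted p = 9.5e-09), and Psmd14 itself by 0.48 (adjusted p = 0.0008). Psmd8 was called higher at 1 h (0.47) and 2 h (0.41) but stood at -0.17 at 4 h, which was not called.

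The activators did not move as a block. Psme3 (chr11:101316213-101323537, plus strand), whose product forms a nuclear cap that acts without ubiquitin, rose the most of all 48 genes at 2 h and at 4 h. Its WT libraries held 738.2, 709, 674.6 and 471 normalized counts at 0 h. After 1 h they held 1339, 1227, 1502 and 1435, after 2 h 2267, 2264, 2374 and 2268, and after 4 h 2147, 2258, 2269 and 2384. Each later group lay above the 0 h group without overlap. The change was 1.10 ± 0.14 at 1 h (adjusted p = 1.4e-09), 1.84 at 2 h (1.2e-17) and 1.82 at 4 h (1.6e-17).

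Psme1 and Psme2 encode the interferon-induced PA28 cap, which is associated with the immunoproteasome, and they did not fall with Psmb8, Psmb9 and Psmb10. Psme2 held 146.9, 142.7, 301.5 and 92.55 normalized counts in WT at 0 h and 516.9, 332.3, 411.1 and 375.9 at 1 h, without overlap. At 2 h it held 371.4, 493.8, 580.6 and 380.3 and at 4 h 252.5, 253.6, 234.6 and 422.6. It rose by 1.37 ± 0.26 at 1 h (adjusted p = 3.3e-05) and 1.52 at 2 h (1.9e-06) and was still higher by 0.86 at 4 h (0.0049), when its libraries overlapped with library 3 at 0 h. Of the 50-base stretches of Psme2, 28.3% also occur in other genes. Psme2b, a near-identical copy with 286.6% as many reads, shares the most of them, so the split of reads between Psme2 and Psme2b is uncertain.

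Psme1 rose by 0.39 ± 0.15 at 1 h (adjusted p = 0.045, or 0.104 without WT 0 h libraries 3 and 4) and by 0.69 at 2 h (adjusted p = 0.00014), and its 0.22 at 4 h was not called (adjusted p = 0.26). Its libraries held 682.1, 726.5, 958.1 and 515.8 normalized counts at 0 h. After 2 h they held 1063, 1129, 1445 and 949.5, and after 4 h 811.3, 725.7, 769.6 and 986, so that the 4 h libraries overlapped those at 0 h. Psme4, an activator known from spermatogenesis and DNA repair, stood at 0.29 ± 0.12 at 1 h, just short of a call (adjusted p = 0.051), and at 0.16 and 0.05 later. Psmf1, the inhibitor PI31, was at -0.08, 0.22 and 0.20, none called.

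**Figure D4:**
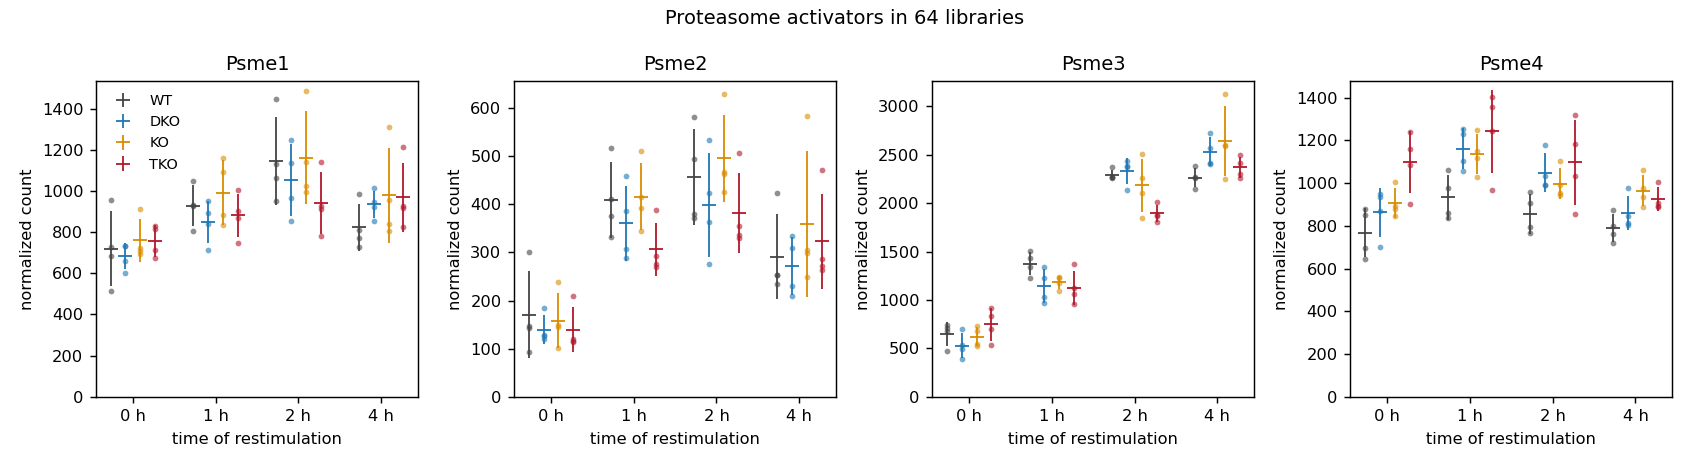
Normalized counts of the activators Psme1, Psme2, Psme3 and Psme4 by time of restimulation and genotype; points are libraries, ticks means and bars 1 SD (n = 4). Psme3 in WT goes from a mean of 648 at 0 h to 2265 at 4 h, while Psme2 is highest at 2 h in WT and Psme4 in TKO at 0 h has a mean of 1097 against 767 in WT.

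Assembly chaperones, which bring the rings of the core and the base together, were called higher in WT for 1 of 7 genes at 1 h, 4 at 2 h and 5 at 4 h. Their median change of 0.88 at 4 h was the highest of the member groups. Psmg3, whose product pairs with that of Psmg4 to guide the alpha ring, rose the most at 4 h, by 1.29 ± 0.27 (adjusted p = 6.2e-05). It was a low gene, with 37.05, 35.12, 40.32 and 16.3 normalized counts at 0 h and 82.13, 70.2, 64.59 and 88.62 at 4 h, and the groups did not overlap. Psmg4 rose earlier, by 0.91 ± 0.23 at 1 h (adjusted p = 0.0011) and 1.47 at 2 h (1.8e-07), and was at 0.91 at 4 h (0.00056). Psmg1 and Psmg2, which form the other chaperone pair of the alpha ring, rose by 0.88 and 0.98 at 4 h. Psmd5, a chaperone of the base, rose by 0.45 (adjusted p = 0.0039), whereas Psmd9 and Psmd10, of the same group of base chaperones, were not called at any time. Psmd9 overlaps Gm26745 on the opposite strand by 1849 bases, and Gm26745 had 310.8% as many reads.

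The symbol rule also matched 2 genes of other kinds. Psmc3ip, whose product acts in meiotic recombination, was called at none of the 3 times. It overlaps Mlx on the opposite strand by 385 bases, and Mlx had 465.8% as many reads. Psme2b, the copy of Psme2, was higher at 2 h (0.95, adjusted p = 0.0013) and was called at neither other time. Of its 50-base stretches, 69.3% also occur in other genes, most of all in Psme2.

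The 4 h pattern recurred in each knockout against its own 0 h libraries. In DKO 32 genes were called higher and 3 lower, where 28.2% and 26.9% of all genes were. In KO 37 were higher and 3 lower, against 33.0% and 27.5%, and in TKO 27 were higher and 2 lower, against 27.3% and 23.1%. With the deposited scaling 20 genes were higher and 5 lower in DKO, 20 and 5 in KO, and 17 and 4 in TKO. The medians of the 48 genes were then 0.31, 0.20 and 0.26, and those of all genes -0.30, -0.48 and -0.16. The other scalings gave 23 to 32 higher and 3 lower in each knockout. With the main scaling 20, 25 and 17 of the 31 constitutive subunits were higher in DKO, KO and TKO and none lower. Their median changes were 0.61, 0.65 and 0.48. Psme3 rose by 2.29 in DKO, 2.09 in KO and 1.69 in TKO, and Psmd11 by 1.26, 1.44 and 0.95. The 0 h libraries of each knockout are its own, so these changes do not rest on the WT libraries that stood apart. The 0 h libraries of the knockouts were also spread in these genes. Their medians, minus that of all genes, spanned 0.38 in DKO, 0.58 in KO and 0.68 in TKO, against 0.82 in WT.

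The immunoproteasome subunits fell in the knockouts too. Psmb8 fell by 1.45 in DKO, 1.29 in KO and 1.16 in TKO, and Psmb9 by 1.75, 1.48 and 1.16, each ± 0.19 for Psmb8 and ± 0.25 for Psmb9. Psmb10 fell by 0.84 in DKO (adjusted p = 0.012) and by 1.00 in KO (0.00294). In TKO the change of Psmb10 was -0.46 ± 0.29 and was not called (adjusted p = 0.195). The difference from WT in the change from 0 h to 4 h was tested in the same model. It was called for none of the 48 genes in DKO (0.818% of all genes, with 3 of the 48 at an unadjusted p under 0.05) or KO (2.17%, with 2 of the 48 at an unadjusted p under 0.05). In TKO it was called for 1, Psmb9, which was higher, against 4.77% of all genes higher and 1.85% lower. With the deposited scaling the difference was called for 1 gene in DKO, 3 in KO and 7 in TKO, all of them lower, and Psmb9 was not among them (adjusted p = 0.0911 in TKO). Of all genes called for that difference with this scaling, only 0.947% in DKO, 1.9% in KO and 17.5% in TKO were higher. The medians of all genes were then -0.30, -0.32 and -0.21.

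Psmb9 fell less in TKO than in WT by 1.23 ± 0.35 on the log2 scale (adjusted p = 0.0223). At 0 h its TKO libraries held 273, 273.7, 250 and 272.1 normalized counts and at 4 h 163.9, 133.8, 71.58 and 126.2. All 4 h libraries of TKO were below its 0 h libraries. The call was lost in 8 alternatives, among them the deposited scaling (0.91, adjusted p = 0.0911), limma voom on recovered reads (adjusted p = 0.0616), the fit without WT 0 h library 3 (1.07, adjusted p = 0.0572) and the fit without WT 0 h libraries 3 and 4 (1.18, adjusted p = 0.0614). The same difference was 0.64 in DKO (adjusted p = 0.538) and 0.91 in KO (adjusted p = 0.139). For Psmb8 it was 0.22, 0.37 and 0.51 in DKO, KO and TKO and for Psmb10 0.44, 0.28 and 0.82, none called.

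Compared with WT at the same time, few proteasome genes were called in the knockouts. No member was called in DKO at 0, 1, 2 or 4 h, where 7.59%, 8.19%, 9.47% and 5.37% of all genes were called in either direction, and 6, 4, 1 and 1 members had an unadjusted p under 0.05. The DKO result at 0 h depended on the setting, with 3 members called higher under the deposited scaling and 3 called lower (Psmd1, Psmd3 and Psme3) without WT 0 h libraries 3 and 4. In KO no member was called at 0, 1 or 2 h, where 1.34%, 2.16% and 5.88% of all genes were, and 1 member each time had an unadjusted p under 0.05. With the deposited scaling 4 members were called higher in KO at 0 h. Under that scaling 99.1% of all called genes were higher in KO at 0 h, and 97.8% in DKO at 0 h. At 4 h in KO 4 members were higher and none lower, where 21.6% of all genes were higher and 11.4% lower, and with the deposited scaling none was called. In TKO 6, 3, 2 and 6 members were higher at 0, 1, 2 and 4 h and 1 was lower, at 2 h. After 0 h most calls were lower with the deposited scaling, where 1 member was higher and 5 lower after 1 h, 1 higher and 4 lower after 2 h, and 2 higher and 4 lower after 4 h, and at 0 h 9 were higher. Of all genes called in TKO with that scaling, 58.9%, 22.6%, 43.7% and 35.6% were higher at 0, 1, 2 and 4 h. The TKO calls after 4 h were 2 higher and 2 lower with median-of-ratios scaling, 2 and 4 with upper quartile scaling and 2 and 3 with scaling by the total. All genes were called higher for 19.3%, 15.8%, 20% and 27.4% and lower for 18%, 15.7%, 16.5% and 16.3% at these times.

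Differences from WT at 4 h depend on the scaling between libraries. The median over the 48 genes in KO was 0.23 and that of all genes 0.22, and under the deposited scaling both were about level with WT, at -0.04 and -0.05. Of all called genes in KO at 4 h, 65.6% were higher with the main scaling and 20% with the deposited one. In TKO at 4 h the medians were 0.20 and 0.20, or -0.06 for the members under the deposited scaling, and the share of called genes that were higher was 62.6% and 35.6%. Against the median of all genes the members stood at 0.01 in KO and 0.00 in TKO.

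Of the 48 genes, 9 were called in at least 1 of the 12 comparisons of a knockout with WT. The share of all genes called in at least 1 of them was not counted. In TKO at 4 h alone 27.4% of all genes were called higher and 16.3% lower. The most regular of the 9 genes was Psma6. Psma6 (chr12:55384222-55418454, plus strand) encodes the alpha 1 subunit of the core. In WT it held 495.7, 513.5, 596.9 and 389.6 normalized counts at 0 h and 696.2, 750.7, 646.8 and 811.6 at 4 h. In TKO it held 807.6, 624.4, 823.5 and 1077 at 0 h and 1445, 1187, 1060 and 1153 at 4 h. Every TKO library was above every WT library at these times, and also at 1 h and 2 h. TKO was higher by 0.73 at 0 h (adjusted p = 0.000221), 0.79 at 1 h (9.3e-05), 0.68 at 2 h (0.000427) and 0.73 at 4 h (0.000161), and each of these calls remained under every alternative. The change from 0 to 4 h differed between TKO and WT by 0.00 ± 0.22 (adjusted p = 0.996).

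In KO Psma6 was at 1214, 985.4, 1004 and 871.2 normalized counts at 4 h, also above every WT library, and higher by 0.48 ± 0.16 (adjusted p = 0.0157), a call lost under some alternatives. At 0 h its KO libraries held 471.1, 446.7, 493 and 588.6, within the range of WT. In DKO Psma6 held 856.6, 776.4, 689.7 and 761.1 at 4 h, which overlapped with WT. Whether the genotypes differ from each other in Psma6 was not tested.

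Psmb9 was higher at 4 h in the knockouts, where WT had fallen the most. WT libraries held 48.99, 52.05, 46.27 and 71.83 normalized counts, DKO 93, 96.72, 80.9 and 85.03, KO 119, 100.2, 115.6 and 77.19, and TKO 163.9, 133.8, 71.58 and 126.2. All DKO and KO libraries were above the WT libraries, and in TKO the lowest library, at 71.58, was just under the highest of WT. The difference was 0.71 in DKO and missed the threshold (adjusted p = 0.0872), 0.90 ± 0.25 in KO (adjusted p = 0.00587) and 1.12 ± 0.25 in TKO (adjusted p = 0.000301). The KO call was lost with the deposited scaling (0.63, adjusted p = 0.0696), and the TKO call remained under every alternative. At 0 h the group means were 297.8, 307.5, 293 and 267.2 in WT, DKO, KO and TKO and none of the knockouts was called.

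The same difference appeared in the ratio to Psmb6, which needs no scaling. At 4 h the ratio of Psmb9 to Psmb6 was higher than in WT by 0.84 in DKO, 0.75 in KO and 1.07 in TKO, with all 4 libraries above WT in each and an exact permutation p of 0.0286 (adjusted 0.129), the smallest the test can give. Psmb10 to Psmb7 was higher by 0.76 in TKO at 4 h, with overlap (exact permutation p = 0.0571, adjusted 0.214). Psmb8 to Psmb5 was lower in TKO at 0 h by 0.48, where all 4 libraries were below WT (exact permutation p = 0.0286, adjusted 0.129).

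Psme4, the PA200 activator, was higher in TKO before restimulation. WT libraries held 695.2, 644.6, 880.6 and 848.4 normalized counts at 0 h and TKO libraries 1241, 1160, 1085 and 901.9, without overlap. The difference was 0.52 ± 0.12 at 0 h (adjusted p = 0.000409), 0.40 after 1 h (0.0062) and 0.35 after 2 h (0.0148). After 4 h Psme4 was called in KO (0.29, adjusted p = 0.0473) and not in TKO. The median of all genes in KO at 4 h was 0.22. The 0 h call in TKO remained under every alternative. The calls of Psme4 in TKO after 1 h and 2 h and in KO after 4 h did not.

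The other members called against WT differed by less. Psmd5, the base chaperone, was higher in TKO at 0 h (0.39, adjusted p = 0.0215) and 4 h (0.44, adjusted p = 0.00766) and in KO at 4 h (0.36, adjusted p = 0.0379). Psmc6 (Rpt4), an ATPase of the base, was higher in TKO at 0 h (0.44, adjusted p = 0.00042) and 1 h (0.25, adjusted p = 0.0484). Psma3 was higher in TKO at 0 h by 0.41 (adjusted p = 0.000726) and at 4 h by 0.27 (adjusted p = 0.0215), although the 4 h difference reversed with upper quartile scaling. Without WT 0 h libraries 3 and 4 the 0 h differences of Psmd5, Psmc6 and Psma3 were 0.47, 0.39 and 0.28 (adjusted p = 0.0199, 0.0098 and 0.0405). Psmb7 was higher in TKO at 0 h by 0.20 (adjusted p = 0.0368), which was not called without these libraries (0.18, adjusted p = 0.123), and lower at 2 h by 0.21 (adjusted p = 0.0244). Psmd6 and Psmc4 were each higher in TKO at 4 h only, by 0.39 and 0.38 (adjusted p = 0.0279 and 0.0429). None of the 4 h calls of Psmd5, Psmd6 and Psmc4 remained under every alternative, nor did the 1 h call of Psmc6 or the 2 h call of Psmb7. The median of all genes at 4 h was 0.20 in TKO and 0.22 in KO.

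**Figure D5:**
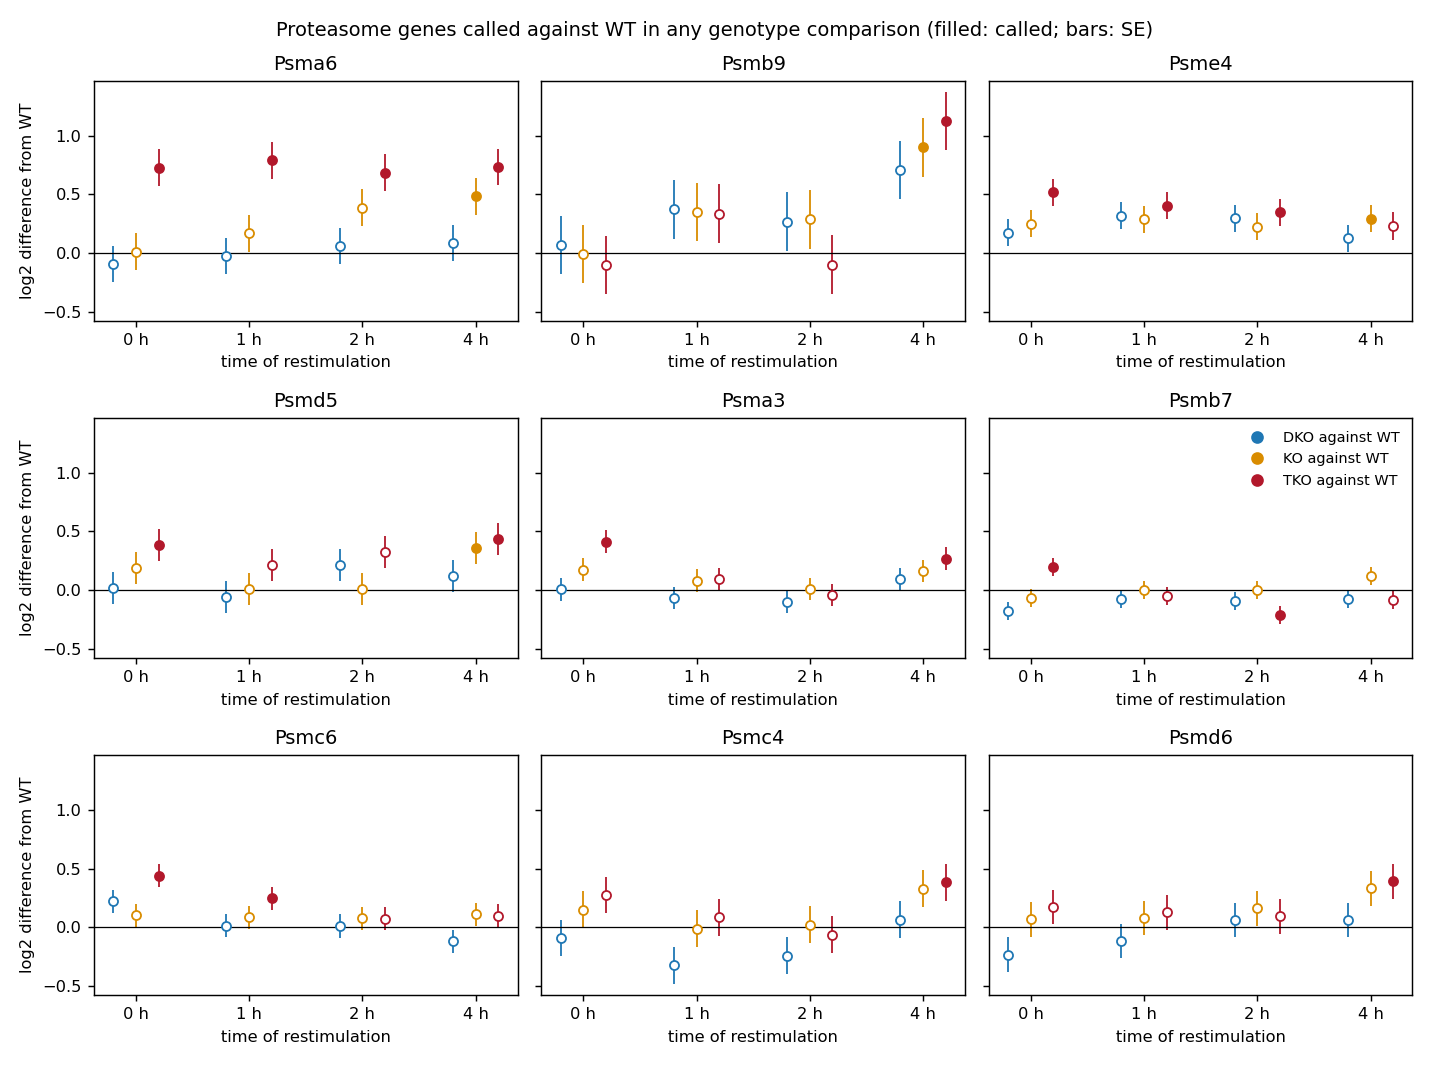
Difference of DKO, KO and TKO from WT at each time for the 9 genes called in any of these comparisons, on the log2(value + 1) scale with bars of 1 SE (n = 4 libraries a group); filled points were called. Psma6 in TKO lies between 0.68 and 0.79 at all 4 times, and Psmb9 is near 0 at 0 h and highest at 4 h in all 3 knockouts.

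Levels of other cell type markers changed with time and genotype beside these results. The summed T cell markers in WT had means of 7442, 8687, 7184 and 3787 at 0, 1, 2 and 4 h, and at 4 h 4924 in DKO, 5037 in KO and 5493 in TKO. The B cell marker Ighm held 1011, 1054, 2133 and 1219 normalized counts in WT at 0 h and 117.7, 118.9, 92.54 and 205.2 at 4 h, and had means of 4016 and 678.4 in TKO at these times. The summed natural killer cell markers were lower in TKO than in WT, with means of 75.7 against 289.6 at 0 h and 152.9 against 466.6 at 4 h. The DKO and KO means were 121.3 and 117.7 at 0 h and 340.5 and 211.1 at 4 h. Cd8a and Cd8b1 together had means at 4 h of 106.1 in WT, 125.6 in DKO, 263.9 in KO and 234 in TKO, and KO libraries ranged from 128.1 to 473.4. The summed myeloid markers at 4 h were 32.5 in WT, 25.7 in DKO, 14.8 in KO and 11.9 in TKO. The part of any of these markers in the proteasome results was not tested. In such bulk RNA, fewer cells of a type and less RNA per cell cannot be told apart.

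Proteasome genes outside the symbol rule were counted in the same way. Of 15 tested partners (the chaperone Pomp, the ubiquitin receptor Adrm1 and shuttle and deubiquitinating factors among them) 6 were called higher in WT at 1 h, 9 at 2 h and 9 at 4 h, with 1 lower at 2 h only, where 18.7%, 26.5% and 24.6% of all genes were called higher. Their changes ranged from -0.37 to 1.86 at 2 h and from -0.30 to 1.89 at 4 h. Pomp, which matures the 20S core, rose by 0.42, 0.62 and 0.41, and the shuttle factor Ubqln4 rose the most at 4 h (1.89). Nfe2l1, which encodes the transcription factor NRF1 known to induce proteasome genes when proteasome activity is low, rose by 0.58, 1.24 and 1.14, from a mean of 299.8 normalized counts at 0 h to 658.8 at 4 h. In TKO Nfe2l1 was higher than in WT at 0 h by 0.79, and its change to 4 h was smaller than in WT by 0.69 (adjusted p = 0.00307). Of the 5 genes of the NRF1 list 3, 4 and 3 were higher at 1, 2 and 4 h and 0, 1 and 2 lower, with Ngly1, the enzyme that processes NRF1, at -1.49 at 4 h. Of 5 ubiquitin genes 3 were higher at 1 h, 2 were higher and 1 lower at 2 h, and 1 was higher at 4 h, the ribosomal fusion gene Rps27a (1.14).

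Genes of MHC class I antigen processing were called in both directions. Of 12 such genes 7 were higher at 1 h and none lower, where 18.7% and 12.4% of all genes were. At 2 h 4 were higher and 2 lower, against 26.5% and 25.4%. At 4 h 3 were higher and 7 lower, against 24.6% and 27.1%. Tap1 held 1260, 1183, 1554 and 1030 normalized counts in WT at 0 h and 274.5, 246.8, 220.7 and 262.1 at 4 h, a fall without overlap of 2.31 on the log2 scale after a rise of 0.35 at 1 h. Tap2, the other subunit of the transporter, fell by 1.88 and Nlrc5, which activates MHC class I genes, by 1.96. Tap1 and Tap2 fell less in TKO than in WT, by 0.62 (adjusted p = 0.0376) and 0.91 (adjusted p = 0.00012), as did Psmb9.

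In the interferon gamma pathway at 4 h, Ifng itself, the cytokine, rose by 8.57, while Ifngr1 (a receptor chain) fell by 3.74 and Irf1, a transcription factor that induces Psmb8 and Psmb9, by 2.82. Irf1 had first risen by 0.72 at 1 h and was at -0.85 at 2 h, also called, and its mean went from 1123 normalized counts at 0 h to 158.2 at 4 h. In TKO at 4 h Irf1 stood 0.58 above WT, which was not called. In KO and TKO at 4 h 8 and 9 of the 12 MHC class I genes were called higher than in WT and none lower, at a time when 21.6% and 27.4% of all genes were called higher. These counts are from the main scaling, where 65.6% and 62.6% of all called genes were higher. With the deposited scaling that share was 20% and 35.6%.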

How the data were processed

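Total RNA of 64 libraries was sequenced after Trizol extraction and preparation with a NuGEN kit, per the labels' protocols. The genome build was GRCm38, per the submitters' processing notes. Aligner, counting tool, annotation and strand setting: not given in the sources used here. Reads from overlapping genes of opposite strands therefore cannot be separated, and 12 of the 49 genes overlap such a gene. The authors' table holds, per the file headers, a list of 4 normalized read counts for each of 16 groups. Group means were deposited too (signal, normalized counts); they matched the lists to within 0.049% and served as a check only. Since no replicate number is attached to a listed value, a library is named by its place in the list, which pairs it with no other.

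Low values were whole multiples of a step that is fixed within each library, and 100% of them gave whole reads within 0.1 read. Libraries of the same group differed with a chi-square of 4.524 to 60.13 per degree of freedom over genes, more than sampling noise, so each counted once. Values were rescaled by the trimmed mean of M values (trims of 30 and 5 percent). Genes with 10 reads at the median depth (1.3 CPM) in at least 4 libraries and 15 reads in all were kept, which left 16140. limma 3.58.1 in R 4.3.3 was fitted to log2(value + 1) with 1 mean per group (48 residual degrees of freedom, trended and robust), over 21 contrasts, with 2-sided p-values adjusted by Benjamini-Hochberg over all genes of a contrast. This scale understates changes of low genes. The fit was tested on simulated data. Ratios were compared by exact 2-sided permutation tests, adjusted over 45 comparisons. Exon lengths, overlaps and 50-base matches came from GENCODE M21, which uses the same build. Python 3.11.15, numpy 2.4.6, pandas 2.3.3 and matplotlib 3.10.9 were used for the rest.

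All libraries of the catalytic subunits and of the activators Psme1 to Psme4 are drawn in the figures, and their values are printed for some groups only. In each other group of members, those with the largest rise or fall among the called genes in WT at 4 h are named, and those called in at least 2 of the 12 comparisons of a knockout with WT. Of lists outside the symbol rule at most 3 called genes each are named, with Tap1, Tap2, Irf1, Pomp and Nfe2l1. Psmd4, Psmd7, Psmd8, Psmd14, Psmg1, Psmg2, Psmg4, Psmd6 and Psmc4 were added after their values were seen. Some marker and pathway genes are not reported here. The members and lists were chosen with earlier results of these data known. A count model had been foreseen, and limma took its place since no raw counts were used. Alternatives were 4 other scalings, pseudocounts of 0.5 and 5, no filter and a filter 5 times as strict, a fit to the compared groups, limma voom on recovered reads and each library left out.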

Additional observations from a re-analysis of the deposited data

Results flagged for a closer look

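A library was set apart where its gap to the nearest of the other 3 was too large a share of the range of its group for 4 libraries. Only the catalytic subunits, the activators Psme1 to Psme4, the ratios between catalytic subunits and the median over the genes were checked. Of 224 groups of 4 values, 18 held such a library, and chance alone gives about 1 in 20. Psme2, the beta subunit of PA28, had the most: its highest library was at 422.6 normalized counts in WT at 4 h, 183.6 in DKO at 0 h, 583.7 in KO at 4 h, and 210 at 0 h, 506.7 at 2 h and 471.2 at 4 h in TKO. Of the other activators, the highest library stood apart for Psme1 in KO at 0 h (913.5), Psme3 in WT at 2 h (2374) and Psme4 in TKO at 4 h (1007). Among constitutive catalytic subunits it was the lowest library of Psmb6 in WT at 1 h (293.8), and the highest of Psmb6 in DKO at 0 h (352.8) and of Psmb7 in KO at 2 h (1284). Among immunoproteasome subunits, both in TKO at 0 h, it was the highest library of Psmb8 (1231) and the lowest of Psmb9 (250), the latter within a narrow range that ended at 273.7.

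Ratios and the median over the genes had such libraries too. The log2 ratio of Psmb8 to Psmb5 had 1 low library in WT at 4 h (0.60). That of Psmb9 to Psmb6 had a high library in DKO at 1 h (0.16) and a low one in TKO at 4 h (-2.62). The median over the 48 genes, minus that of all genes, had a low library in WT at 4 h (-0.12 on the log2 scale).

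The change of Psmb9 from 0 h to 4 h differed between TKO and WT by 1.23 on the log2 scale (limma, adjusted p = 0.0223). All 4 TKO libraries at 4 h were below those at 0 h, as in WT. The difference was not called in 8 of the alternatives, among them the deposited scaling (adjusted p = 0.0911), limma voom on recovered reads (0.0616) and the fit without WT 0 h libraries 3 and 4 (0.0614).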

How the results depend on the processing

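No paired analysis was possible because the deposited lists carry no replicate numbers. edgeR on recovered reads was not run, and limma voom on the same reads stood in for it. The number of members called against the same reference changed by over 1.5 times as follows. With the deposited scaling it was 3 instead of 0 in DKO and 4 instead of 0 in KO at 0 h (all higher, as were 97.8% and 99.1% of all called genes). It was 1 instead of 0 in DKO at 1 h and 0 instead of 4 in KO at 4 h. In TKO it was 6 (1 higher, 5 lower) instead of 3 (all higher) at 1 h, and 5 (1 higher, 4 lower) instead of 3 (2 higher, 1 lower) at 2 h. For KO from 0 to 4 h it was 25 (20 higher, 5 lower) instead of 40 (37 higher, 3 lower). In TKO at 4 h the count of 6 did not change, but 2 were higher and 4 lower instead of all higher. For the difference from WT in the change to 4 h it was 1 in DKO, 3 in KO and 7 in TKO, all lower, instead of 0, 0 and the 1 higher call of Psmb9, which was lost. Of all genes called for that difference, 0.947%, 1.9% and 17.5% were higher. With median-of-ratios scaling the number of members called was 2 in DKO at 0 h, 1 in KO at 4 h, 5 in TKO at 2 h and 3 for the TKO difference. With upper quartile scaling it was 9 (7 higher, 2 lower) in WT at 1 h instead of 14 (all higher), 1 in KO at 4 h and 5 in TKO at 2 h. It was 26 for KO from 0 to 4 h, 1 for the DKO and 4 for the TKO difference. Scaling by the total gave 8 (6 higher, 2 lower) in WT at 1 h, 1 in KO at 4 h and 2 for the TKO difference.

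Without a filter 8 members were called in WT at 1 h, 1 in DKO at 2 h, 13 in KO and 12 instead of 6 in TKO at 4 h. The filter 5 times as strict gave 3 in DKO at 0 h, 1 in DKO at 1 h, 1 in KO at 4 h, 5 in TKO at 2 h and 3 for the TKO difference, and for KO from 0 to 4 h a member median 0.46 above that of all genes. Fits to the compared groups gave 7 in WT at 1 h, 1 in DKO and 10 in KO at 4 h, and 3, 1 and 11 in TKO at 0, 2 and 4 h. The TKO difference had 0 with voom, and 0 without WT 0 h libraries 3 and 4, a setting added after seeing the data that also gave 9 in WT at 1 h and 3 in DKO at 0 h. The cause of these changes was not tested.

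With 1 library left out at a time the count ranged from 8 to 16 in WT at 1 h (8 without WT 0 h library 2, WT 0 h library 4 or WT 1 h library 3, and 9 without WT 1 h library 1). It ranged from 0 to 4 in DKO at 0 h (4 without WT library 4, 2 without DKO library 2) and from 0 to 2 in DKO at 1 h (2 without DKO library 4, 1 without WT library 1 or 2). In KO at 4 h it ranged from 1 to 5 (1 without WT library 1 or 4 or KO library 1, 2 without KO library 3). In TKO it ranged from 4 to 11 at 0 h (11 without TKO library 2) and from 2 to 8 at 4 h (2 without WT library 1 or TKO library 4, 3 without WT library 4 or TKO library 1). The TKO difference had 0 to 3 (0 without WT 0 h library 3, 3 without TKO 0 h library 3, 2 without TKO library 4 of either time).

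Of the 28 members called in WT at 4 h, 23 were called under every alternative run, as were 16 of 30 at 2 h, 6 of 14 at 1 h, 22 of 35, 23 of 40 and 18 of 29 for DKO, KO and TKO from 0 to 4 h, 0 of 4 for KO at 4 h and 3 of 6, 1 of 3, 1 of 3 and 2 of 6 for TKO at 0, 1, 2 and 4 h. Single genes that turned did so with the deposited or upper quartile scaling, and after turning lay between -0.18 and -0.0068. Among them were calls of the main scaling. From 0 to 4 h Psmc6 in DKO had been called at 0.25 (limma, adjusted p = 0.0282), and in KO Psmc1 at 0.42 (0.0322) and Psme1 at 0.35 (0.0473). Psma3 in TKO at 4 h had been called higher than in WT too. Against WT at 4 h the genes that turned were AI314180 in KO (-0.0068 and -0.018) and Rad23b in KO (-0.045 and -0.056) and TKO (-0.027 and -0.053). With upper quartile scaling alone Psma3 (-0.010) and Ddi2 (-0.017) turned in TKO. From 0 to 4 h, with the deposited scaling, the genes that turned were Psmc6 in DKO (-0.034) and in KO Psmc1 (-0.018), Psme1 (-0.094), Akirin2 (-0.012), Zfand5 (-0.029), Ubqln2 (-0.031) and Uba1 (-0.18, and -0.033 with upper quartile scaling). Depth limits the low genes most: Psmb9 rested on 40 to 77 reads in WT at 4 h.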
